A study of Homo sapiens with 3 samples.

Results

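The 9 genes described here encode SR proteins and their relatives: SRSF1, SRSF2, SRSF3, SRSF5, SRSF6, SRSF7, SRSF11, TRA2A and TRA2B. They were examined in the capture design of a study that searched for branchpoint nucleotides in K562 cells, a human erythroid and myeloid leukaemia line. The members are 66 of the 377858 target intervals in the design, chosen because they lie fully inside 1 fixed hg19 window per gene. Intervals were taken by position alone and not by score, but the members were chosen with earlier results of these data known. The 3 sequencing libraries are replicates 1, 2 and 3 of 1 untreated group, ribosome-depleted total RNA with ERCC spike-in at a final 1% in the first and second and 1.08% in the third. The interval list is common to all of them and holds no value per library, so no difference between samples could be measured or tested. Read depths were not analysed here.

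SR proteins bind exons through RNA recognition motifs and use stretches rich in arginine and serine to recruit the spliceosome to nearby splice sites. Many of their genes carry a poison exon, an exon whose inclusion brings a premature stop codon and sends the transcript to nonsense-mediated decay. High levels of the protein favour such inclusion in several of these genes, which closes a loop of self-regulation, and the DNA around the poison exons is among the most conserved in vertebrates. Branchpoints lie close to the 3′ ends of introns, so the flanks of a poison exon are places where this design could place a target.

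The stop codon defines a poison exon, so the part of the exon read before it is shown here. These bases are exon sequence, which the design removes, and only the intron ends beside them could hold targets. The following 5 sequences are the longest such exon per gene, among exons that lie inside an intron of a protein-coding transcript and could be placed between targets of the list. Each starts at the first base of the exon, is given 5′ to 3′ on the gene's strand from GENCODE release 29 transcripts, and ends with the stop codon in capitals. Coordinates in this list are GRCh38 and are not those of the targets, which are hg19 throughout.
SRSF3, exon 4 of 456 nt, chr6:36599821-36599854, plus strand: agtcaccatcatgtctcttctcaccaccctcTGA
SRSF6, exon 3 of 268 nt, chr20:43459153-43459304, plus strand: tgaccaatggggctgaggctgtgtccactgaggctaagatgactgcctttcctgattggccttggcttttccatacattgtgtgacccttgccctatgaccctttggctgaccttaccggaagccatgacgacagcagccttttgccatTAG
SRSF7, exon 4 of 449 nt, chr2:38749319-38749346, minus strand: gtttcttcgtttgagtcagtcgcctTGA
SRSF11, exon 4 of 117 nt, chr1:70231859-70231908, plus strand: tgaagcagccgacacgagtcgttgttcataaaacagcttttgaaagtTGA
TRA2B, exon 2 of 276 nt, chr3:185931772-185931852, minus strand: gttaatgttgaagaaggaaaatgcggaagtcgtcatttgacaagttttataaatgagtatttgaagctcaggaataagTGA
The exons of SRSF7 and SRSF3 reach the stop after 25 and 31 nt, those of SRSF11 and TRA2B for 47 and 78 nt, and that of SRSF6 for 149 nt. How the list treats their flanks is described after the scores and numbers of the targets.

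Each target carries a deposited score, a whole number from 0 upward. No label or header says what it counts. A higher score is therefore described as such and not as expression. The targets of the 9 genes scored high. Their median was 29 against 1 over the whole list, and 64 of 66 (97.0%) scored above 0 against 52.8% of all targets. A score of 19 or more was held by 41 (62.1%), against 10.4% of the list. At or above 82, the 99th percentile of the list, lay 11 members (16.7%) from 7 genes, against 1.02% of all targets. SRSF11 supplied both targets of score 0, and without it the median of the other 48 was 39. Targets of 1 gene share its transcript and are not replicates, so these shares are descriptions of a fixed list and no test was made.

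Every gene stood above its surroundings. The 1828 other targets within 500 kb of the 9 windows had a median score of 1, and 56.0% of them scored above 0. For single genes, the median of the surrounding targets ran from 0 to 3, while that of the genes ran from 6.5 to 74. By median the order was SRSF3 (74), SRSF1 (64.5), SRSF6 (63), SRSF7 (61.5), SRSF2 (58), SRSF5 (52), TRA2B (39), TRA2A (15.5) and SRSF11 (6.5). Neighbours in this order had overlapping ranges in each case, and 3 of the genes rest on 2 targets.

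**Figure D1:**
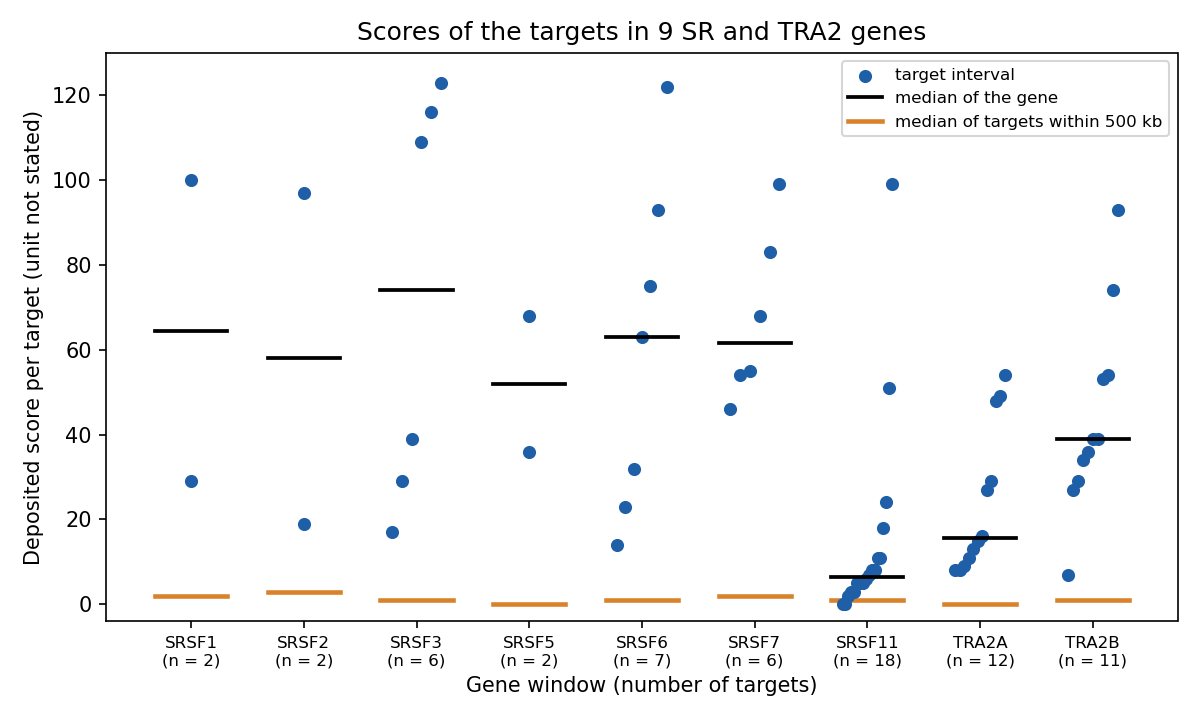
Deposited score (vertical axis, unit not stated) of each of the 66 targets by gene, with the median of each gene as a black bar and the median of other targets within 500 kb as an orange bar. All 9 black bars lie above the orange ones, by most in SRSF3 (74 against 1) and by least in SRSF11 (6.5 against 1).

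Among the classical SR proteins, SRSF1 and SRSF2 are the founding splicing regulators of the family. SRSF1 had targets of score 29 at chr17:56083603-56083702 and 100 at chr17:56084204-56084303, both 100 nt wide. In RefSeq genes of GRCh38, 1 other gene overlaps SRSF1 and 1 overlaps SRSF5, and as the list puts every target on the plus strand, targets of these 2 genes could belong to introns of the overlapping gene. SRSF2 also had 2, a sliver of 16 nt with score 19 at chr17:74732631-74732646 and one just over full width with score 97 at chr17:74732780-74732880. RefSeq genes of GRCh38 place MFSD11 and MIR636 over SRSF2, and exons cover every SRSF2 intron end in GENCODE release 29, so the gene to which these 2 belong was not resolved. Both genes thus combined a high and a lower target, and neither held a target under 19.

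SRSF3, the smallest member of the family, had the highest scores. Its 6 targets scored 123, 109, 17, 116, 29 and 39 in order along the gene, all 100 nt wide. The target of 123, at chr6:36562260-36562359, was the highest of all 66 and lay close to the list maximum, with 99.96% of all targets below it. Of these, 3 were above 100 and the other 3 were at or below 39.

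SRSF5, another enhancer-binding member of the family, had only 2 targets, of score 36 and 68, the higher at chr14:70237259-70237358. The other 126 targets within 500 kb had a median of 0 and 27.0% above 0, the lowest such share around any of the 9 genes. SRSF6 had 7 targets, scoring 32, 75, 14, 122, 23, 63 and 93 along the gene. The 2 that were not 100 nt wide, of 136 nt at chr20:42088537-42088672 and of 103 nt at chr20:42089240-42089342, were also its highest, with scores of 122 and 93. Their widths are those of whole short introns, as shown further on.

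SRSF7, the family member with a zinc knuckle beside its recognition motif, had no low target. Its 6 targets scored 99, 46, 83, 68, 55 and 54, so that its lowest lay far above the upper quartile of chromosome 2, which was 4. The highest lay at chr2:38972330-38972429. Chromosome 2 as a whole had a median score of 0, and 3.00% of its targets reached 19, against all 6 in SRSF7.

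SRSF11, an SR-related protein known to interact with the 3′ splice site factor U2AF, differed from the other 8. It had the most targets (18) over the longest stretch, and 16 of them scored 24 or less. The 2 others were neighbours, of score 99 at chr1:70687524-70687623 and 51 at chr1:70694005-70694104. The target before this pair, like the one before that, scored 0. Only 3 of the 18 (16.7%) reached 19, against 10.4% of the list and 7.90% of chromosome 1, while each of the other 8 genes had at least 41.7%.

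TRA2A and TRA2B are the human counterparts of the fly sex-determination factor transformer-2 and bind purine-rich exon enhancers. The pair differed in level. The 12 targets of TRA2A ran from 8 to 54 with a median of 15.5, and 5 (41.7%) reached 19. The 11 targets of TRA2B ran from 7 to 93 with a median of 39, and 10 (90.9%) reached 19. The highest lay at chr7:23571307-23571406 in TRA2A and at chr3:185635514-185635613 in TRA2B. The ranges overlapped, and each gene stood above its surroundings, whose medians were 0 and 1.

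**Figure D2:**
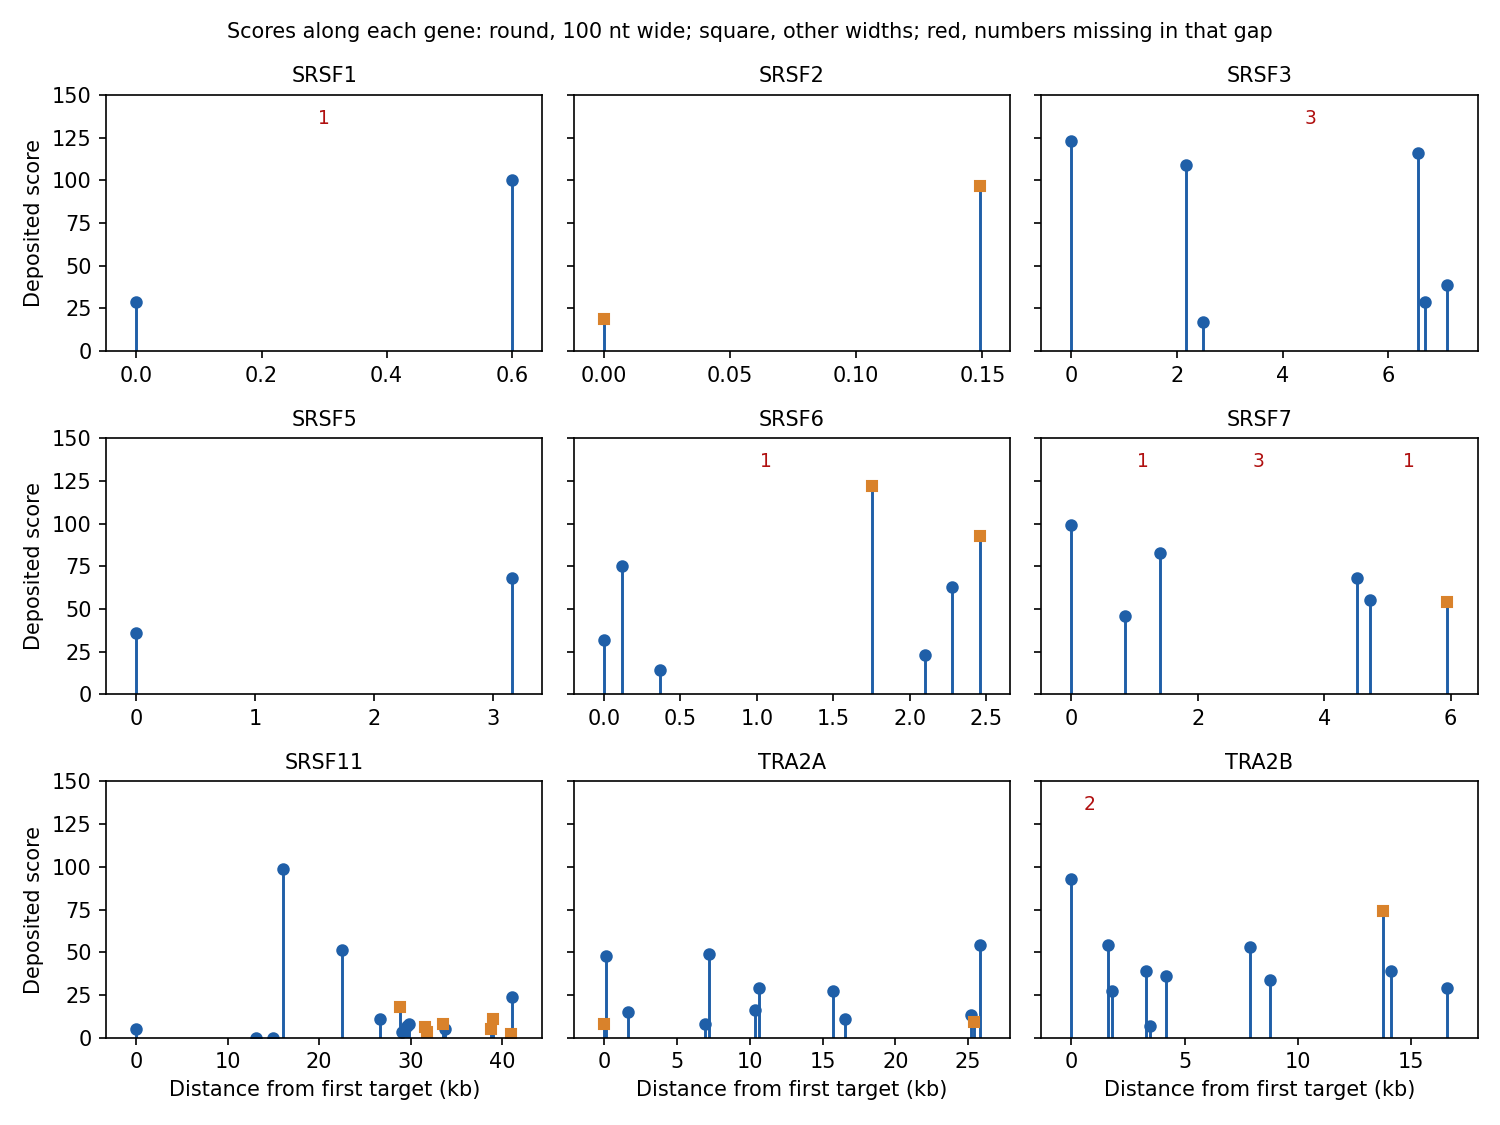
Deposited score (vertical axis) against distance from the first target of each gene in kb (horizontal axis, which differs between panels). Round marks are targets of 100 nt, orange square marks other widths, and red figures at the top count the running numbers missing in that gap. SRSF11 shows a single high pair (99 and 51) among low targets, while SRSF7 stays between 46 and 99.

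Target widths were less regular than in the list. Exactly 100 nt was the width of 51 of 66 (77.3%), against 87.7% of all targets. The other 15 ran from 12 to 145 nt, and 7 of them were in SRSF11. In that gene 5 of 18 targets (27.8%) were 96 to 99 nt wide, against 10.6% on its chromosome 1 and 2.57% in the list. SRSF7, on chromosome 2, where 9.27% of targets had such widths, had none among 6. No target of the remaining 7 genes fell in that range either. The narrowest member was a 12 nt sliver of SRSF11 at chr1:70712401-70712412 (score 2), and the widest SRSF11 targets were the 11 of full width. SRSF7 had 1 target under full width, of 89 nt at chr2:38978281-38978369 (score 54). TRA2A had one of 28 nt at chr7:23545505-23545532 (score 8) and one of 145 nt, the widest of all members, at chr7:23570890-23571034 (score 9). TRA2B had a single sliver of 39 nt at chr3:185649264-185649302, whose score of 74 was the second highest in the gene.

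Several of these odd widths recurred, to the base or within 1 nt, when the design recipe was laid over the same genes. The recipe takes 100 nt from each end of every annotated intron and subtracts exons. Applied to GENCODE release 29 without the repeat and transcription steps, and with the left edge moved inward by 1 nt, it gave targets of 103 and 136 nt in SRSF6, of 12 nt in SRSF11 and of 145 nt in TRA2A, as listed. The slivers of 28 nt in TRA2A and 39 nt in TRA2B had rebuilt targets of 29 and 38 nt, and the 89 nt target of SRSF7 one of 90 nt. All these matches are of width within a gene, and positions were not compared. The widths of 96 to 99 nt in SRSF11 had no rebuilt counterpart. The 16 nt sliver of SRSF2 had no counterpart either, as no SRSF2 target was rebuilt. In the other direction, rebuilt targets of 85 nt in SRSF5, 17 nt in SRSF7, 103 nt in SRSF11 and just over full width in TRA2B had no listed counterpart of exactly that width.

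The rebuilt set held 85 targets in the 9 genes, so the list had 77.6% as many, against 85.2% over the whole genome. This share mixes the difference between releases 12 and 29 with the steps left out. TRA2A had 12 in both, SRSF1 had 2 in both, and SRSF2 had 2 listed and 0 rebuilt. SRSF3 had 6 listed and 7 rebuilt, SRSF5 2 and 3, SRSF6 7 and 10, TRA2B 11 and 14, and SRSF11 18 and 23. SRSF7 had the lowest share, with 6 listed of 14 rebuilt (42.9%). The small numbers in SRSF1, SRSF2 and SRSF5 were present in the rebuilt set too. Release 29 annotates 31 retained-intron transcripts among the 105 of these genes, 8 each in SRSF5 and TRA2B, and an annotated retained intron counts as exon in the recipe. From the basic transcripts alone SRSF5 had 12 rebuilt targets and the 9 genes 105.

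Running numbers were missing from these genes far more often than from the list. Targets are numbered along each chromosome, and a skipped number may mark an entry that was numbered and is not listed. No source says how the numbers were given. Inside the 9 windows 12 of 78 numbers (15.4%) were missing, against 1.24% of all numbers. SRSF7 lacked 5 of 11, SRSF3 3 of 9, TRA2B 2 of 13, and SRSF1 and SRSF6 1 each, of 3 and of 8. SRSF2, SRSF5, SRSF11 and TRA2A lacked none. Without SRSF7 the share was 10.4% (7 of 67). On the chromosomes that hold these 5 genes the share was lowest for chromosome 2, at 0.444%, and highest for chromosome 17, at 2.36%.

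The missing numbers fell in 7 gaps. In SRSF1, 1 number was skipped between the targets of score 29 and 100. SRSF3 lost 3 numbers between chr6:36564747-36564846 (score 17) and chr6:36568829-36568928 (score 116), a gap of 3982 nt. In SRSF6 the break lay between chr20:42087151-42087250 (score 14) and the whole-intron target of score 122. SRSF7 had 3 breaks. Its first, of 1 number, separated chr2:38973185-38973284 (score 46) from chr2:38973735-38973834 (score 83). The largest, of 3 numbers over 3013 nt, led from there to chr2:38976848-38976947 (score 68). The last, of 1 number, lay between chr2:38977055-38977154 (score 55) and the 89 nt target of score 54. TRA2B lost 2 numbers between chr3:185635514-185635613 (score 93) and chr3:185637124-185637223 (score 54).

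The 13 targets beside a break had a median score of 55, from 14 to 122. The other 53 had a median of 27, or 36 without SRSF11, and reached 123. The ranges overlapped, and SRSF3 shows both sides in 1 gene, with 17 on the near side of its break and 116 on the far side. All targets of the genes without a break are among the 53. Their medians were 58 in SRSF2, 52 in SRSF5, 15.5 in TRA2A and 6.5 in SRSF11. The 2 sets thus differ in genes as well as in place, and these were not separated. If the skipped numbers stood for entries, their scores are not in the list. Whether the removal of highly transcribed parts named in the labels' protocols produced these breaks was not tested.

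**Figure D3:**
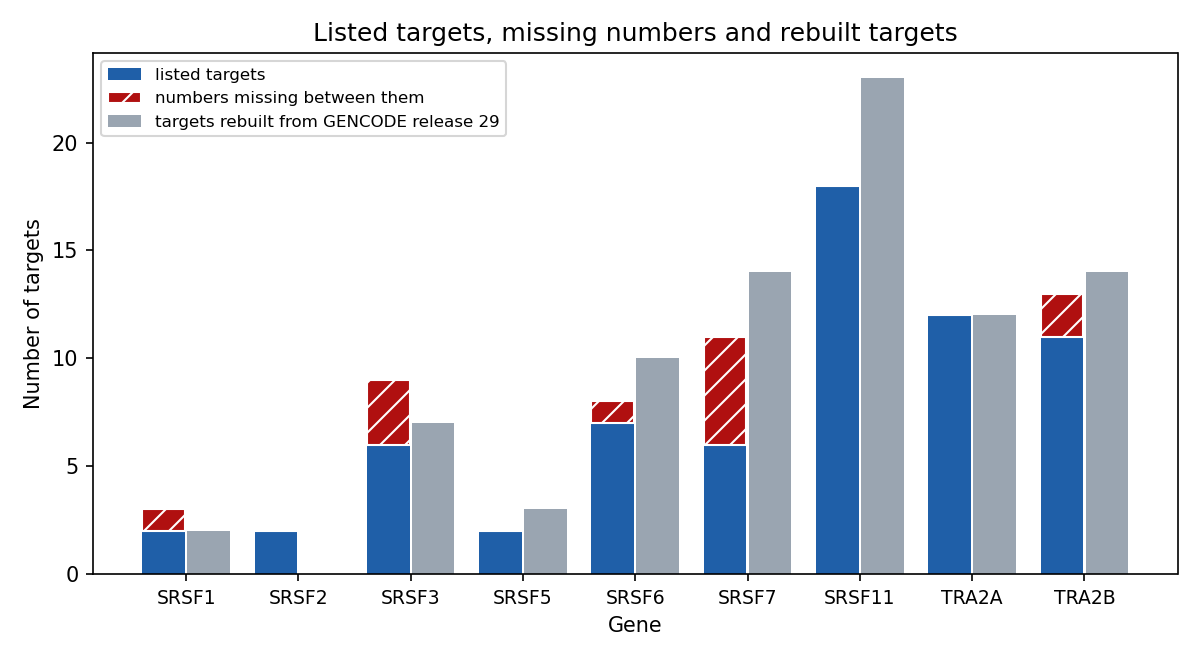
Number of targets per gene: listed targets in blue with the running numbers missing between them in red on top, and targets rebuilt from GENCODE release 29 in grey. SRSF7 has 6 listed, 5 missing and 14 rebuilt, TRA2A has 12 listed, none missing and 12 rebuilt, and SRSF2 has none rebuilt.

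Introns and exons of these genes could be recognised in the list by length alone, without carrying coordinates from one build to another. A pair of full-width targets at both ends of an intron spans its length, less 1 nt for the moved left edge. This held for 20 introns in 6 genes, of which 2, both in SRSF6, were covered whole by 1 target: the introns of 137 and 104 nt, by the targets of 136 and 103 nt. With a span equal to the intron length, or 2 nt shorter, 1 intron each was found, and with a span 1 nt longer none. SRSF1, SRSF2 and SRSF5 gave no match. Among gaps of up to 1000 nt inside the windows, 13 of 31 equalled the length of an internal exon of the same gene plus 1 nt. In 12 of them that exon also borders the intron recognised next to it. They include the 208 and 39 nt exons of SRSF3, the 149, 209 and 84 nt exons of SRSF6, the 60 and 84 nt exons of TRA2B the 189, 166 and 90 nt exons of TRA2A and the 50 nt exon of SRSF11. The 12th, of 726 nt in TRA2A, is an exon of retained-intron transcripts only. The 13th was the 450 nt gap of SRSF7, which has the length of the 449 nt poison exon plus 1 nt. It lies beside a 956 nt intron that this exon does not border, so the match was not taken as the poison exon. In SRSF11, 3 further gaps, of 98, 134 and 84 nt, were 2 nt longer than exons of 96, 132 and 82 nt, and each had at least 1 target of 95 to 99 nt at its side.

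Both ends of the same intron often differed in score. Over the 18 introns with a target at each end, the 3′ end scored higher in 12 and the 5′ end in 6. The median was 44 at 3′ ends and 33 at 5′ ends, and the median difference (3′ minus 5′) was 8.5. In 11 of 18 the scores were within a factor of 2. In SRSF6 the 3′ end scored higher in both introns, 75 against 32 and 63 against 23. SRSF7 had the 3′ end higher in 3 of 3, with 99 against 46, 99 against 83 and 68 against 55. SRSF11 showed the opposite in its long first pair, with 99 at the 5′ end and 51 at the 3′ end of a 6582 nt intron. TRA2B was split, with 7 at the 3′ end against 36 in an 823 nt intron and 53 against 34 in a 974 nt intron. Some introns share a target (1 target of SRSF7 and 1 of TRA2A stand in 2 introns each), so the 18 are not independent. The share of introns with the higher score at the 3′ end was not computed for other genes. Whether 12 of 18 is particular to these genes is therefore not known.

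**Figure D4:**
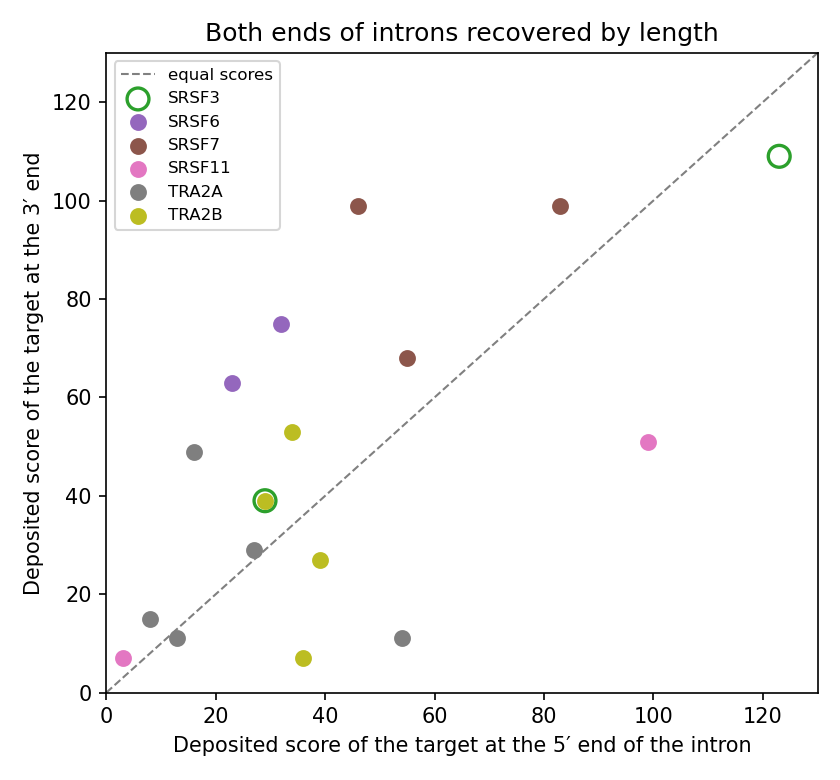
Deposited score of the target at the 3′ end (vertical axis) against that at the 5′ end (horizontal axis) of 18 introns recognised by length, coloured by gene, with SRSF3 as open circles and equal scores as a dashed line. Most points, 12 of 18, lie above the line, with the 6582 nt intron of SRSF11 (99 and 51) far below it; an SRSF3 and a TRA2B intron coincide at 29 and 39.

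Of the exons called poison exons here, 2 bordered an intron recognised by length, 1 in SRSF7 and 1 in TRA2B. That of TRA2B lies inside a coding intron. That of SRSF7 lies in no coding intron, and its bordering intron of 308 nt is also annotated in protein-coding transcripts. Release 29 annotates 13 exons, in 7 of the genes, that are internal and hold the stop codon of a transcript marked for nonsense-mediated decay. Exons identical at both edges to an exon of a protein-coding transcript were left out. Partial overlap with coding exons was not tested, so some of the 13 may hold ordinary coding sequence. In SRSF2 and TRA2A no exon met these conditions. Inside an intron of a protein-coding transcript lie 9 of the 13, in 6 genes, and some of the 13 overlap each other. Of the 13, 10 could be placed by length between 2 listed targets, in SRSF3, SRSF6, SRSF7, SRSF11 and TRA2B. The exons of SRSF1 and SRSF5 could not. A placed exon had 2 to 6 such placements, of which the shortest is given. A target in a recognised intron had to fit the edge of that intron. The bounding targets 5382 and 5386 of SRSF3, 5885 of SRSF6 and 14510 of SRSF11 stood in none. Any exon edge at the right distance was accepted for them.

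In SRSF3, SRSF6 and SRSF7 the stretch that holds the poison exon contained no listed target and 1 or more missing numbers. The SRSF7 placement joins only neighbouring listed targets, so no listed target could lie between them. In all 3 genes the shortest placement was taken, which favours stretches without a listed target. The absence of listed targets is therefore no finding about poison exons. The 456 nt exon of SRSF3 lies in a stretch of 4183 nt in the annotation, and the targets 5382 and 5386 span 4182 nt. Between them 3 numbers were missing, where the rebuilt set has 4 targets. Both 100 nt flanks of that exon are covered by other annotated exons in release 29, so the recipe as rebuilt gives no target directly beside it. A second poison exon of 98 nt in the same stretch has both flanks free, and no target was listed there either. For the 268 nt exon of SRSF6, whose flanks are free of exons on both sides, the rebuilt set has 3 targets between numbers 5885 and 5887, and the list has 1 missing number and none listed. The 449 nt exon of SRSF7 lies in a stretch of 3012 nt that corresponds to the gap of 3013 nt between numbers 5199 and 5203. There the rebuilt set has 5 targets and the list 3 missing numbers, and both flanks of the exon lie inside an overlapping SRSF7 exon of 1127 nt. The same stretch holds 3 further SRSF7 exons with the stop codon of a transcript marked for nonsense-mediated decay. They are not all separate, as those of 276 and 449 nt share an edge and both lie inside that of 1127 nt. That of 276 nt has no free flank, and that of 69 nt has 100 nt free before it and 17 nt after it. The longest, of 1127 nt, lies in no coding intron and has both flanks free. It borders the intron of 308 nt, whose targets scored 68 beside the exon and 55 at the far end, while no target was listed on its other side. Of the 12 missing numbers, 7 lie in the 3 stretches that hold these exons. What share would fall there by length or by number of intron ends was not computed. The other breaks of SRSF7 and that of TRA2B, between 21071 and 21074, lay outside such stretches. The SRSF1 break is in a gene whose exons could not be placed. The 3 stretches also hold other exons, and which intron end, if any, each missing number stood for is not known.

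SRSF11 and TRA2B differed from these 3. The 117 nt exon of SRSF11 falls in a stretch of 3956 nt that matches the gap of 3957 nt between numbers 14509 and 14510. No missing number lay there, and the rebuilt set has no target there. As in SRSF7, the way the stretch was placed left no room for a listed target. Exons of other transcripts cover both flanks of this exon. A second poison exon of SRSF11, of 91 nt, falls in the same stretch, with 57 nt free before it and 0 after it. In TRA2B the 276 nt exon had a target on each side. An intron of 2576 nt, annotated in other transcripts, ends where the exon starts and was spanned by targets 21082 and 21083, of score 39 and 29. On the far side, exons of other transcripts leave 38 nt of the flank free, and the list has the 39 nt sliver of score 74. The gap between these 2 targets, 338 nt, exceeds the exon by 62 nt, which with the 38 nt left makes up the 100 nt of a full flank. By these lengths TRA2B was the only one of the 5 genes printed above whose poison exon had listed targets on both sides. In SRSF3, SRSF7 and SRSF11 the printed exon has no free flank in release 29, so the recipe as rebuilt allowed none there. That leaves TRA2B and SRSF6, whose exons were not read alike. The SRSF6 stretch was the shortest of 6 placements, a choice that favours stretches without a listed target. TRA2B was read from a bordering intron and a sliver. No contrast between the 2 genes is therefore drawn.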

How the data were processed

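The authors deposited 1 list of target intervals with a score per interval. The deposited score is of unknown meaning and normalisation, and was used as a score with no count model. Per the labels' protocols, 100 nt at both ends of GENCODE release 12 introns were targeted, exons and parts highly transcribed in K562 were removed, and repeats were omitted. The submitters' processing notes name hg19, Bowtie2, TopHat2 and bedtools. Of the tool that made the list no source says anything.

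Members were intervals fully inside the 9 windows (hg19, in Mb): SRSF1 17:56.078-56.085, SRSF2 17:74.730-74.734, SRSF3 6:36.562-36.573, SRSF5 14:70.233-70.239, SRSF6 20:42.086-42.093, SRSF7 2:38.970-38.979, SRSF11 1:70.671-70.719, TRA2A 7:23.544-23.572 and TRA2B 3:185.633-185.656. Members and lists were chosen with earlier results of these data known. The named intervals are the highest-scoring per gene, the widest and narrowest other than 100 nt, and both neighbours of each missing number. GENCODE release 29 and RefSeq genes (GRCh38) gave lengths, names and transcript sequences only. The length matching was checked on targets built from the annotation. Other SR and hnRNP genes on the fixed list were not analysed here, as they could not be placed in hg19. Python 3.11.15, numpy 2.4.6, pandas 2.3.3, scipy 1.17.1 and matplotlib 3.10.9 were used.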

Additional observations from a re-analysis of the deposited data

How the results depend on the processing

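No paired analysis was possible because all 3 libraries form a single group and share every value of the list. Leaving out libraries was not possible for the same reason, and no depth stands behind the values as far as the sources used here tell. The number of members was 69 with any overlap and 73 with windows widened by 1 kb. The share scoring above 0 became 62.1% when 19 was the threshold, and ran from 96.3% to 100% as each gene was left out in turn, with 100% without SRSF11. The median score ran from 27 to 39 on leaving out a gene, and was 34 for targets of exactly 100 nt. All 9 genes had a median above their surroundings with flanks of 100 kb and of 1 Mb as well. The share of full width was 86.4% for widths from 96 nt to 1 nt over 100, 83.3% without SRSF11 and SRSF7, and 74.5% to 83.3% on leaving out a gene. The missing numbers were 18 with the window edges counted and 7 to 12 on leaving out a gene, with 7 without SRSF7. Gaps matching an exon length were 12 up to 500 nt, 11 with basic transcripts, 1 for a gap equal to the exon and 3 for a gap 2 nt longer, all 3 in SRSF11. Introns recognised by length were 19 with basic transcripts, 1 for a span equal to the intron, 1 for a span 2 nt shorter and 0 for a span 1 nt longer. The length settings other than 1 nt give fewer matches by construction if every left edge is moved by 1 nt. The intron matching and the rebuilt set were chosen after seeing the data.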
